A study of Homo sapiens with 8 samples.

Results

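The keratin genes of simple and stratified epithelium that were examined were KRT5, KRT7, KRT8, KRT15, KRT17, KRT18, KRT19, KRT23, KRT80 and KRT81, 10 genes in all. Their values were taken from each array probe set, that is, each group of short probes for 1 transcript, whose only gene symbol in the platform annotation was one of these names. This gave 12 probe sets of 8 genes, out of 54613 probe sets other than controls and 19775 genes. KRT7 had 4 probe sets, KRT19 had 2, and KRT5, KRT8, KRT15, KRT18, KRT23 and KRT80 had 1 each. KRT17 and KRT81 were not analysed here, because no probe set carried either as its only symbol in the annotation used. Probe sets with several symbols were given to no gene.

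The study sorted 4 lung cancer cell lines by flow cytometry into a side population (SP), the cells that pump the Hoechst dye out, and a main population (MP), the cells that keep it, to look for genes of stem-like cancer cells. K-Ras is mutated in A549 and H460, and EGFR is mutated in H1650 and H1975. All cells of both populations had been stained with Hoechst dye and propidium iodide, and no drug or genetic change was named in the labels. RNA of each population of each line was hybridised to 1 Affymetrix array, 8 arrays in all, and values are log2 MAS5 signals, the scale on which 1 unit is a 2-fold difference.

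Each line's SP and MP arrays are 2 sorted populations of that line. A p-value between lines therefore sets a difference against the spread between those arrays, which the fit draws toward the spread of other probe sets of like signal. Nothing in the labels says that the arrays came from separate cultures. The number of arrays limits the precision throughout. In bulk RNA, fewer cells that express a gene and less RNA per cell cannot be told apart. ABCG2, the dye transporter that marks the SP, was higher in SP than in MP by 1.08 in A549, 0.36 in H460 and 1.17 in H1975 on the log2 scale, and differed by -0.70 in H1650, where the lower signal belonged to the array labelled SP. Directions in H1650 rest on its labels, and the test of SP against MP is given with and without this line. The median signal of an array lay between 5.92 and 6.29, and dim probe sets below about this level have large and unsteady ratios. The line averages of these medians were 6.21 in A549, 6.14 in H1650, 6.12 in H1975 and 5.93 in H460, so that a comparison with H460 carries a shift of up to 0.28 in the median of all probe sets.

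Keratins are the intermediate filament proteins of epithelial cells. A filament is built from pairs of 1 type I and 1 type II chain, and the pair of KRT8 (type II) with KRT18 (type I) is the framework of simple, single-layered epithelium, where KRT7 and KRT19 are also found. KRT5, KRT15 and KRT17 are known from the basal layer of stratified epithelium and from basal cells of the airway, and KRT7 and KRT19 are widely used as markers of lung adenocarcinoma. In the RefSeq gene table the type II genes KRT80, KRT7, KRT5 and KRT8 lie on chromosome 12 together with KRT18, and KRT23, KRT15 and KRT19 lie on chromosome 17. KRT80 is there the neighbour of KRT7, KRT8 the neighbour of KRT18, and KRT15 the neighbour of KRT19.

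The first question was whether the lines differ in the keratins they express. They did for 6 of the 8 genes, by their brightest probe set, against 10232 of all 19775 genes. KRT7 was low in H460, KRT8 and KRT18 were highest in A549, KRT19 was high in H460 and H1650, and KRT15 and KRT80 were highest in H1650. KRT5 and KRT23 were dim and did not pass the test. By the moderated F test of limma, fitted over all probe sets with population as a term, 7 of the 12 keratin probe sets had an adjusted p under 0.05, against 40.5% of all probe sets. The range of the 4 line means had a median of 1.78 over the keratin probe sets and of 1.37 over all probe sets. Bright probe sets passed more often than dim ones over the whole array, with 68.5% called at a mean signal of 12 or more, 78.1% from 9 to 12, 54.7% from 6 to 9 and 16.5% below 6. The keratin probe sets that passed had 4 members in the first of these classes (KRT7, KRT8, KRT18 and KRT19), KRT80 in the second, KRT15 in the third and a dim KRT7 probe set in the last. With both H1650 arrays left out, 6 of the 12 passed, against 35.4% of all probe sets, and these were the brightest probe sets of KRT7, KRT8, KRT18, KRT19, KRT15 and KRT80.

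**Figure D1:**
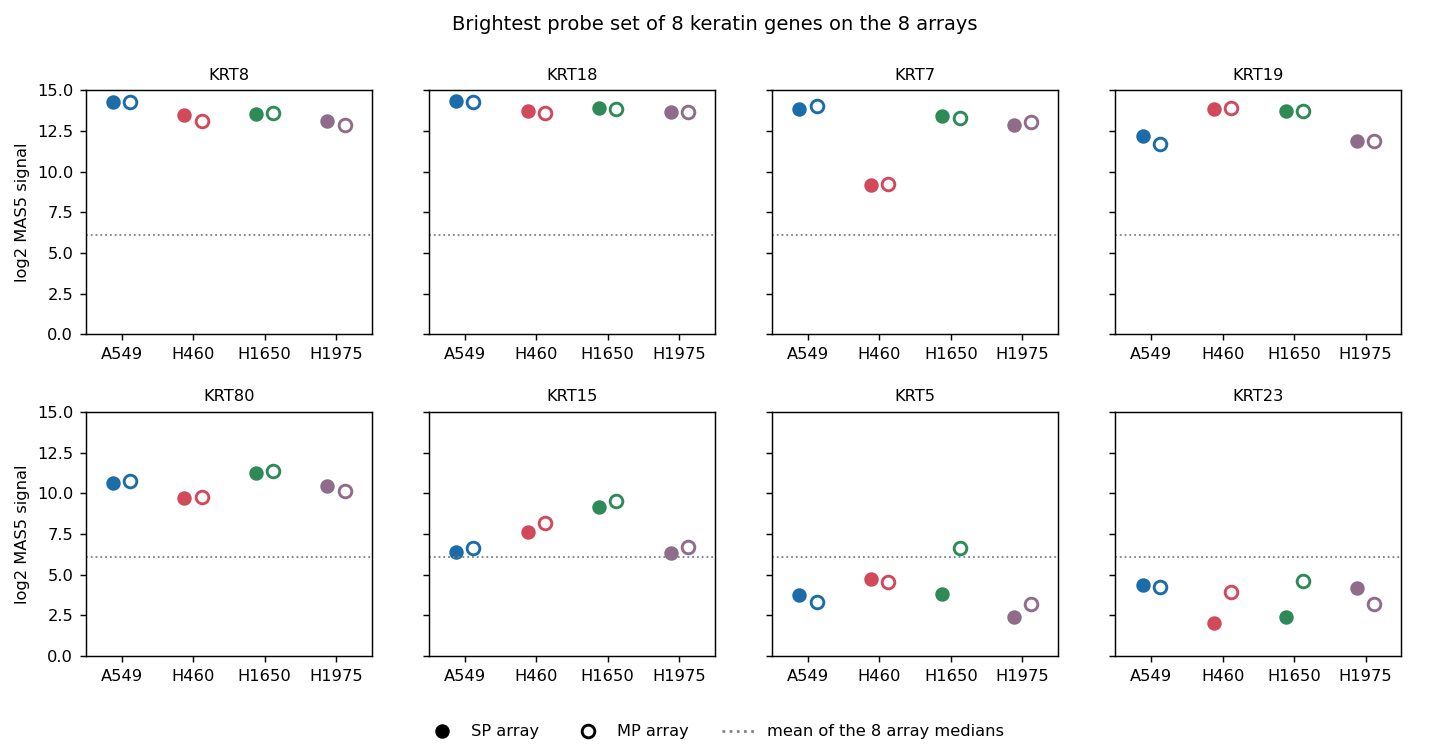
Log2 MAS5 signal (vertical axis) of the brightest probe set of each of the 8 measured keratin genes in the 4 lines (horizontal axis), with a filled point for the SP array, an open point for the MP array and a dotted line at the mean of the 8 array medians, 6.10. SP and MP of a line lie close together for KRT8, KRT18, KRT7, KRT19, KRT80 and KRT15, KRT7 stands low in H460 (9.17 in SP and 9.25 in MP), and KRT5 and KRT23 lie at or below the dotted line on nearly every array.

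KRT8, the type II chain of the simple epithelial pair, was bright in all 4 lines. Its probe set (209008_x_at) read 14.32 (SP) and 14.31 (MP) in A549, 13.55 (SP) and 13.59 (MP) in H1650, 13.48 (SP) and 13.10 (MP) in H460, and 13.11 (SP) and 12.88 (MP) in H1975. Both A549 arrays lay above the other 6. A549 exceeded H1975 by 1.33 (SE 0.12), a 2.51-fold difference with an adjusted p of 0.000182, H460 by 1.03 (2.04-fold, adjusted p = 0.000916) and H1650 by 0.75 (1.68-fold, adjusted p = 0.00348). H1650 exceeded H1975 by 0.58 (adjusted p = 0.0115). The neighbours in the order were not told apart below A549, with H1650 over H460 by 0.28 (adjusted p = 0.149) and H460 over H1975 by 0.30 (adjusted p = 0.119), and quantile normalization raised the difference of H1650 from H460 to 0.55 (adjusted p = 0.00830).

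KRT18, the type I partner of KRT8, had the narrowest range of the 6 genes. The signals of its probe set (201596_x_at) were 14.33 (SP) and 14.32 (MP) in A549, 13.90 (SP) and 13.86 (MP) in H1650, 13.74 (SP) and 13.64 (MP) in H460, and 13.65 (SP) and 13.67 (MP) in H1975. A549 was again above every other array, by 0.67 over H1975 (SE 0.090, 1.59-fold, adjusted p = 0.00113), by 0.63 over H460 (1.55-fold, adjusted p = 0.00203) and by 0.45 over H1650 (1.36-fold, adjusted p = 0.00875). Among the other 3 lines no difference passed the test, with 0.19 for H1650 over H460, 0.22 for H1650 over H1975 and 0.031 for H460 over H1975 (adjusted p from 0.131 to 0.849). Both H1650 arrays still lay above the arrays of H460 and H1975. The SD within lines was 0.037 for this probe set, and the SE of 0.090 also draws on the spread of other probe sets. Their order depended on the scaling, since H1650 over H460 was 0.54 after quantile normalization (adjusted p = 0.00156) and -0.027 with equal array medians, and H460 over H1975 was -0.17 after quantile normalization. The difference of A549 from H1650 was 0.12 after quantile normalization (adjusted p = 0.349), 0.38 with equal array medians (adjusted p = 0.145) and 0.43 without the MP array of A549 (adjusted p = 0.0529). Both chains read near the top of the A549 arrays, whose highest signals were 14.59 in SP and 14.67 in MP. The highest signals of the H1650 arrays were lower, at 14.31 in SP and 14.26 in MP. Both probe sets are of the kind marked x_at, which may also bind related sequences.

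The signals of this pair followed each other over the arrays. Pearson's r between KRT8 and KRT18 was 0.97 over the 8 arrays, given as a description since the points share 4 lines and each array's scaling. By the same measure KRT8 was at 0.45 with KRT7 and at -0.21 with KRT19.

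KRT7, a type II keratin of glandular and simple epithelium, had the widest range of the bright keratins. The brightest of its 4 probe sets (209016_s_at) read 13.87 (SP) and 14.04 (MP) in A549, 13.41 (SP) and 13.33 (MP) in H1650, 12.88 (SP) and 13.05 (MP) in H1975, and 9.17 (SP) and 9.25 (MP) in H460. Both H460 arrays were well below the other 6. A549 exceeded H460 by 4.75 (SE 0.11), a 26.8-fold difference with an adjusted p of 7.22e-07. H1650 exceeded H460 17.9-fold and H1975 exceeded it 13.5-fold (adjusted p = 7.16e-07 and 6.65e-07). The signal of H460 still lay above the median of its arrays. Among the other lines, A549 was above H1975 by 0.99 (1.99-fold, adjusted p = 0.000463) and above H1650 by 0.58 (adjusted p = 0.00710), and H1650 was above H1975 by 0.41 (1.33-fold, adjusted p = 0.0318). These last 2 calls were not stable. The difference of A549 from H1650 lost its call without the MP array of A549 (0.52) and with equal array medians (0.51, adjusted p = 0.0599). The difference of H1650 from H1975 lost its call with equal array medians (0.39, adjusted p = 0.144). It also lost it without the SP array of H1650 or any one of the H460 and H1975 arrays, at 0.30 to 0.47.

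The other KRT7 probe sets had much lower signals. The second (1558393_at) spanned 6.09 to 6.95 and lay at or above the array median on all 8 arrays. It showed no difference past the F test (adjusted p = 0.726), and A549 exceeded H460 by 0.33 on it (adjusted p = 0.647). The third (214031_s_at) had line means of 6.20 in H1650, 5.50 in A549, 4.79 in H1975 and 3.59 in H460 and passed the F test (adjusted p = 0.0280). It lay at or above the array median on 1 array only, so the values of the other arrays are poorly measured. By these values 1 of its 6 pairs passed, H1650 over H460 (adjusted p = 0.0108). The fourth (1558394_s_at) lay below the array median on all 8 arrays and did not pass (adjusted p = 0.151). The size of the KRT7 difference thus rests on 1 of 4 probe sets.

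KRT80, a type II keratin known from several epithelia and the chromosomal neighbour of KRT7, was of intermediate signal in all lines. Its probe set (231849_at) read 11.23 (SP) and 11.41 (MP) in H1650, 10.65 (SP) and 10.79 (MP) in A549, 10.48 (SP) and 10.17 (MP) in H1975, and 9.73 (SP) and 9.78 (MP) in H460. H1650 was highest and H460 lowest on both of their arrays, and the groups in between lay next to each other. H1650 exceeded H460 by 1.56 (SE 0.16, 2.96-fold, adjusted p = 0.000196) and H1975 by 1.00 (2.00-fold, adjusted p = 0.00254), and A549 exceeded H460 by 0.96 (1.94-fold, adjusted p = 0.00400). H1650 exceeded A549 by 0.60 (1.52-fold, adjusted p = 0.0261) and H1975 exceeded H460 by 0.56 (1.48-fold, adjusted p = 0.0303), while A549 over H1975, at 0.40, did not pass (adjusted p = 0.110). The difference of H1650 from A549 lost its call without either A549 array, either H460 array or the MP array of H1650 (0.50 to 0.69, adjusted p from 0.0530 to 0.168). The difference of H1975 from H460 lost it without either H460 array or the SP array of H1975 (0.35 to 0.59, adjusted p from 0.143 to 0.229). With equal array medians they were 0.67 (adjusted p = 0.0521) and 0.37 (adjusted p = 0.246). With linear signals under 32 set to 32 they stayed at 0.60 and 0.56 but lost the call (adjusted p = 0.0735 and 0.0788).

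KRT19, a small type I keratin that lacks the usual tail domain, divided the lines into pairs. Its brightest probe set (201650_at) read 13.88 (SP) and 13.89 (MP) in H460, 13.73 (SP) and 13.76 (MP) in H1650, 12.20 (SP) and 11.69 (MP) in A549, and 11.86 (SP) and 11.91 (MP) in H1975. The 4 arrays of H460 and H1650 lay above the 4 arrays of A549 and H1975. H460 exceeded H1975 by 2.00 (SE 0.15, 4.01-fold, adjusted p = 5.05e-05) and A549 by 1.94 (3.84-fold, adjusted p = 9.98e-05), and H1650 exceeded H1975 by 1.86 (3.63-fold) and A549 by 1.80 (3.47-fold), with adjusted p values of 0.000106 and 0.000128. Within the pairs no difference passed: H460 over H1650 was 0.14 (adjusted p = 0.561), which quantile normalization turned to -0.15, and A549 over H1975 was 0.064 (adjusted p = 0.823), which equal array medians turned to -0.028. H460, the line with low KRT7, was thus among the 2 lines with high KRT19, and r between both genes was -0.62 over the 8 arrays. The second KRT19 probe set (228491_at) averaged 2.53, lay below the array median on all 8 arrays and showed no difference between lines (adjusted p = 0.912).

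KRT15, a type I keratin of basal cells and the chromosomal neighbour of KRT19, was a moderate signal with a clear order. Its probe set (204734_at) read 9.14 (SP) and 9.56 (MP) in H1650, 7.62 (SP) and 8.19 (MP) in H460, 6.34 (SP) and 6.73 (MP) in H1975, and 6.37 (SP) and 6.64 (MP) in A549. H1650 lay above H460, and H460 lay above the overlapping arrays of H1975 and A549. H1650 exceeded A549 by 2.84 (SE 0.24, 7.18-fold, adjusted p = 0.000125), H1975 by 2.82 (7.05-fold, adjusted p = 0.000128) and H460 by 1.44 (2.72-fold, adjusted p = 0.00254). H460 exceeded A549 2.64-fold (adjusted p = 0.00477) and H1975 2.59-fold (adjusted p = 0.00338). The last, a log2 difference of 1.37, was 1.27 without the MP array of H460, with an adjusted p just above the threshold. H1975 and A549 did not differ beyond their spread (0.027, adjusted p = 0.957). The r of KRT15 with KRT19 was 0.85 over the 8 arrays, with A549 and H1975 the low lines for both genes.

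KRT5, the basal type II keratin, was read above the median of its array on 1 array only, the array labelled MP of H1650. Its probe set (201820_at) read 3.80 in the array labelled SP and 6.64 in the array labelled MP of H1650, 4.72 (SP) and 4.55 (MP) in H460, 3.73 (SP) and 3.32 (MP) in A549, and 2.39 (SP) and 3.22 (MP) in H1975. The lines did not differ past the test (adjusted p = 0.175). H1650 exceeded H1975 by 2.42 (adjusted p = 0.0960), a value that rested on single arrays. It was 3.80 without the array labelled SP of H1650 (adjusted p = 0.0311), 1.05 without the array labelled MP (adjusted p = 0.564) and 0.82 once linear signals under 32 had been set to 32 (adjusted p = 0.429). KRT23, a type I keratin, lay below the array median on all 8 arrays (218963_s_at, 2.05 to 4.60) and did not pass (adjusted p = 0.682).

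**Figure D2:**
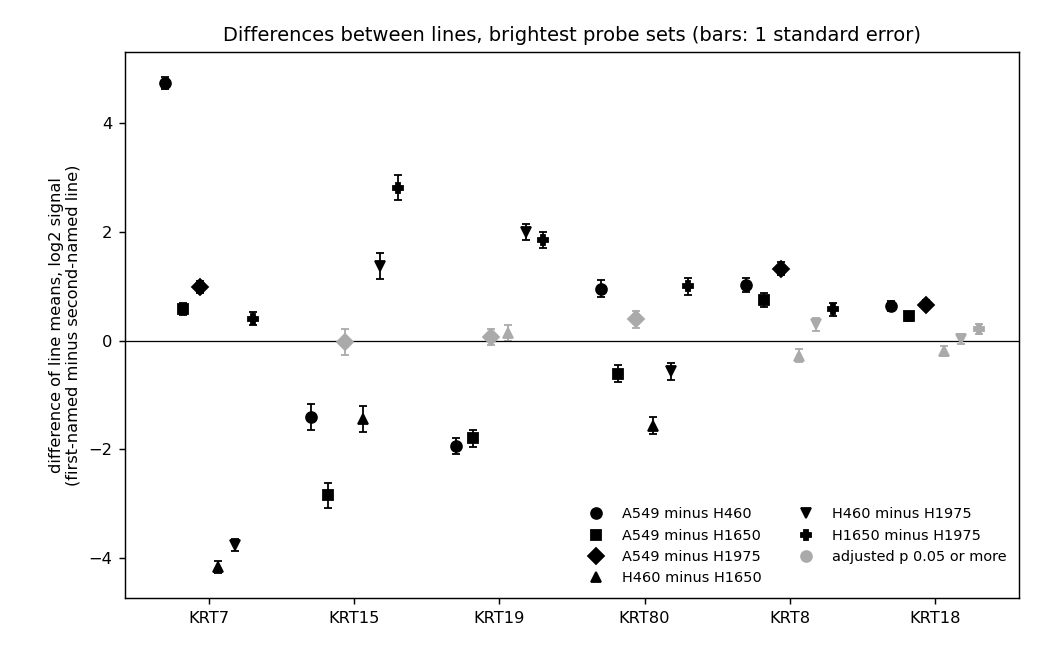
Differences of line means in log2 signal (vertical axis, first-named line minus second-named line) for the 6 pairs of lines and the brightest probe sets of KRT7, KRT15, KRT19, KRT80, KRT8 and KRT18 (horizontal axis), with bars of 1 standard error from the limma fit and grey symbols where the adjusted p was 0.05 or more. The widest difference is KRT7 in A549 minus H460, at 4.75, and no difference of KRT18 is wider than 0.67.

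Counted by pair of lines, 6 of the 12 keratin probe sets differed between A549 and H460 and 6 between A549 and H1650, against 17.1% and 21.9% of all probe sets. These were in both pairs the brightest probe sets of KRT7, KRT8, KRT15, KRT18, KRT19 and KRT80. Between H1650 and H1975, 5 keratin probe sets passed against 22.3% of all, and KRT18 was the bright one that did not. Between H460 and H1975, 4 passed against 25.5%, between H460 and H1650, 4 passed against 26.4%, and between A549 and H1975, 3 passed (KRT7, KRT8 and KRT18) against 24.3%. The pairs share arrays and are not independent counts. For none of the 8 keratin genes did both K-Ras lines lie on one side of both EGFR lines in the order of line means. A setting that moved many of these calls was the variance trend. Without it, 3 keratin probe sets passed between A549 and H460, 2 between A549 and H1650 and 2 between H1650 and H1975. Single differences were rerun only for lines next to each other in a gene's order and for its highest against its lowest line, so not every lost call is named. Among those rerun, A549 from H1975 in KRT18 did not pass (adjusted p = 0.0914), nor did A549 from H1650 in KRT8, KRT7 and KRT18 (0.106, 0.144 and 0.210). The differences of H1650 from H1975 in KRT7 (0.261) and of H1650 from A549 and H1975 from H460 in KRT80 (0.171 and 0.172) also did not pass.

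The second question was whether SP and MP differ in these keratins. No keratin probe set passed the test of SP against MP with cell line as a block, either in the 4 lines (0.00% of all probe sets called by limma) or without H1650 (0.00549%, or 3 probe sets). At an unadjusted p under 0.05 there was 1 keratin probe set, that of KRT15, and 2136 probe sets in all, and without H1650 there were 0 and 4792. The simple epithelial pair was close to equal in the populations. The log2 ratio of SP over MP for KRT8 was 0.38 in H460, 0.23 in H1975, 0.010 in A549 and -0.038 in H1650, with a mean of 0.15 ± 0.20 (SD, n = 4 lines). For KRT18 the ratios lay between -0.018 and 0.094, with a mean of 0.031 ± 0.048. KRT7 had a mean ratio of -0.084 ± 0.12 on its brightest probe set and KRT80 one of -0.016 ± 0.22, which was 0.037 without H1650. Without that line the means were 0.21 for KRT8, 0.029 for KRT18 and -0.14 for KRT7 (adjusted p = 0.587, 0.941 and 0.681).

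KRT15 was the one of the 8 keratin genes whose brightest probe set read lower in SP in each line, H1650 as labelled included. Its ratios were -0.57 in H460, -0.42 in H1650, -0.40 in H1975 and -0.27 in A549, with a mean of -0.41 ± 0.12 (unadjusted p = 0.0374, adjusted p = 0.961, limma). Without H1650 the mean was -0.41 with an adjusted p of 0.660, so this difference did not pass. Over all probe sets with a mean signal from 6 to 9, as KRT15 has, the middle 95% of the ratios spanned -1.11 to 1.18 in H460, -1.11 to 1.06 in H1650, -1.43 to 1.04 in H1975 and -1.07 to 1.29 in A549, and each KRT15 ratio lay inside these bounds.

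For KRT19 the ratio of A549 stood apart from those of the other lines, without passing a test. Its brightest probe set had a ratio of 0.51 in A549, against -0.013 in H460, -0.027 in H1650 and -0.044 in H1975. In the interaction test of A549 against the other 3 lines this was a difference of 0.53 (unadjusted p = 0.0105, adjusted p = 0.989), which did not pass. Among all probe sets of 12 or more in mean signal, the middle 95% of the A549 ratios spanned -0.50 to 0.30, so the KRT19 ratio lay above that range. In A549 itself the KRT19 line mean was 11.95. Among probe sets with a mean signal from 9 to 12 the A549 ratios spanned -0.54 to 0.83, and the KRT19 ratio lay inside. No probe set, keratin or other, passed the interaction test in any line (limma). At an unadjusted p under 0.05 there were 1 keratin probe set of 2657 in all in A549, 0 of 2144 in H460, 1 of 4631 in H1650 (the second of KRT19) and 0 of 2879 in H1975.

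With 1 SP and 1 MP array a line, a 2-fold ratio is a value with no test. In A549, 0 of the 12 keratin probe sets reached it, against 21.9% of all probe sets. In H460, 1 did (KRT23, at -1.87), against 21.1%. In H1650, 3 did (the second KRT19 probe set at -3.07, KRT5 at -2.84 and KRT23 at -2.18), against 19.2%. In H1975, 1 did (the fourth KRT7 probe set, at -2.61), against 21.2%. All 5 ratios came from probe sets with a mean signal below 6. There the middle 95% of all ratios spanned -2.90 to 2.77 in H1650, -3.12 to 2.85 in H460 and -3.13 to 2.55 in H1975, and the ratio of the second KRT19 probe set was the one outside. Once linear signals under 32 had been set to 32, only KRT5 in H1650 stayed 2-fold, at -1.64.

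**Figure D3:**
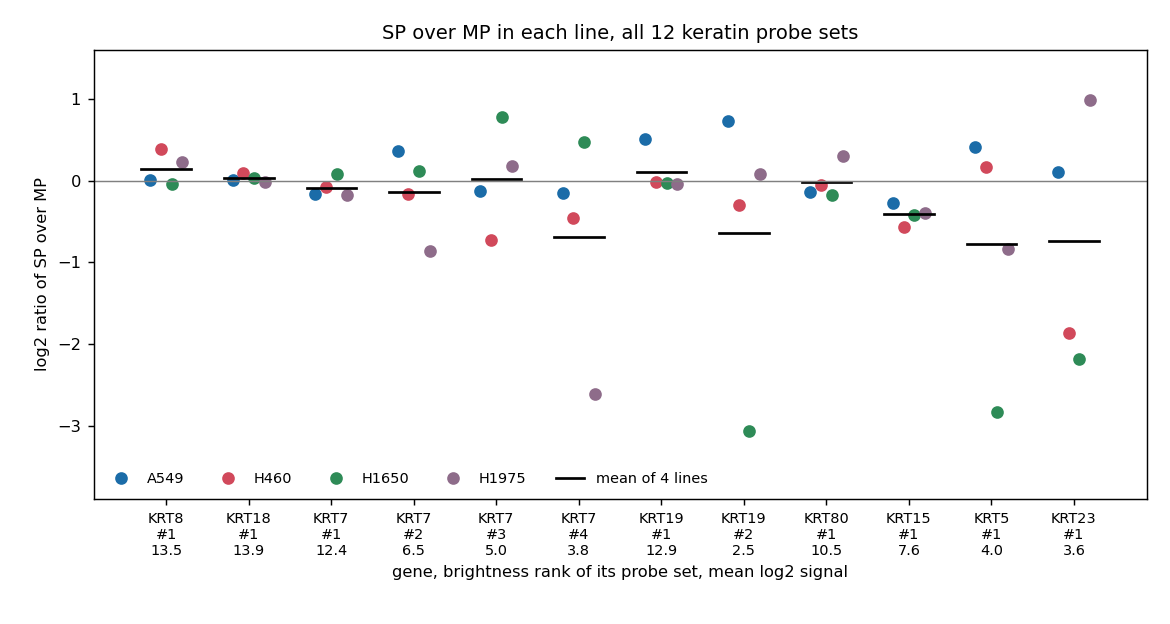
Log2 ratio of SP over MP (vertical axis) in each of the 4 lines (coloured points) with the mean of the lines (black bar), for all 12 keratin probe sets (horizontal axis: gene, brightness rank of the probe set within its gene, mean log2 signal). The brightest probe sets of KRT8, KRT18, KRT7, KRT19, KRT80 and KRT15 lie within -0.57 and 0.51, and the ratios beyond -1 all belong to probe sets with a mean signal below 6.

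Genes whose signal followed each keratin were taken as the 3 with the highest Pearson's r over the 8 arrays, among 2303 genes that were at or above the median signal and varied by an SD of at least 1. The points share lines, and SP and MP of a line resemble each other, so high values are common and are given as a description. KRT7 was followed most closely by KSR1 (0.997), UCP2 (0.993) and CMIP (0.992), KRT18 by FLRT3 (0.990), LINC01279 (0.988) and PLCXD1 (0.984), and KRT8 by PLCXD1 (0.984), LRP4 (0.965) and IGFLR1 (0.962). PLCXD1 was the gene shared by both chains of the simple epithelial pair. KRT19 was followed by WASF3 (0.991), SERPINB5 (0.988) and ST3GAL1 (0.980), KRT15 by ARAP2 (0.976), HLA-DRB1 (0.965) and HLA-DQB1 (0.959), and KRT80 by MMP2 (0.986), EPCAM (0.984) and LSR (0.983). For the dim genes the likeness was lower, at most 0.832 for KRT5 (ELL3) and 0.727 for KRT23 (SH3BGRL2).

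Other keratins gave a more uneven picture. Of 14 other epithelial keratins with a probe set, 5 differed between the lines by their brightest probe set. Of 17 hair and root sheath keratins 2 did, against 10232 of all 19775 genes. Only 4 of the 14 and 0 of the 17 were at or above the median signal, and dim probe sets passed less often over the whole array. KRT16, a type I keratin of stratified and activated epithelium, read 10.44 in the array labelled SP and 11.21 in the array labelled MP of H1650, 8.96 (SP) and 8.62 (MP) in H1975, 5.79 (SP) and 5.63 (MP) in A549, and 3.68 (SP) and 0.70 (MP) in H460 (adjusted p = 0.000216). It was above the array median in both EGFR lines and below it in both K-Ras lines. KRT4, the type II keratin of the upper layers of mucosal epithelium, read 10.62 (SP) and 9.19 (MP) in A549 and between 2.77 and 4.30 on the other 6 arrays (adjusted p = 0.000500). KRT20, a type I keratin of intestinal epithelium, read 8.20 (SP) and 7.03 (MP) in A549 and at most 4.77 elsewhere (adjusted p = 0.00158). KRT10, the type I keratin of the upper epidermis, was highest in A549, with a line mean of 13.24, and lowest in H1975, with 11.67 (adjusted p = 0.000133), on a probe set of the x_at kind. The other call was KRT9, highest in H1650 with a line mean of 7.82, and the hair keratins called were KRT83, above the array median on 3 arrays, and KRT72, below it on all 8.

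Over all genes, 10232 of 19775 differed between the lines by their brightest probe set, and 25.2% of those were highest in H1650. Bright probe sets passed more often, and no test set a gene list against other genes. Among the genes that tie keratin filaments to cell junctions, 14 of 17 desmosome and plakin genes passed, 13 of them highest in H1650, and 12 of the 17 were at or above the median signal. DSP, or desmoplakin, which anchors keratin filaments to desmosomes, read 13.56 (SP) and 13.59 (MP) in H1650, 13.19 (SP) and 13.35 (MP) in H1975, 12.93 (SP) and 13.05 (MP) in A549, and 5.47 (SP) and 4.52 (MP) in H460 (adjusted p = 1.15e-06). It was thus below the array median in H460, the line with low KRT7. PPL, a plakin, had line means of 11.45 in H1650, 8.04 in A549, 7.95 in H1975 and 5.44 in H460, PKP2, a plakophilin, was highest in H1650 and lowest in H1975, at 8.59, and DSC2, a desmosomal cadherin, was highest in H1650 at 11.19 and lowest in H1975 at 5.29. All 3 measured hemidesmosome genes passed, and 2 of them were highest in A549.

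Of 10 measured cornified envelope and squamous genes 9 passed, against 10232 of all 19775 genes, and 6 of the 10 were at or above the median signal. Of the 9, 8 were highest in H1650, the line in which KRT15 was also highest. IVL, or involucrin, a precursor of the cornified envelope, read 12.15 (SP) and 12.22 (MP) in H1650 and between 5.17 and 5.38 on the other 6 arrays (adjusted p = 3.29e-06). CSTA, SPRR1B and SPRR3 were also highest in H1650, with line means of 12.50, 10.58 and 8.72. Of 17 factors known to act on keratin genes, 16 passed, against the same share of all genes, and 8 of these 16 were highest in H1650. At or above the median signal were 16 of the 17. GATA3 was highest there (11.98) and lowest in H1975 (5.05), TFAP2C was highest there (12.61) and lowest in A549 (10.16), ELF3 was highest in A549 (11.34) and lowest in H460 (6.58), and FOXA1 was highest in H460 (9.11) and lowest in H1975 (2.70).

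Other intermediate filament genes had no common direction. Of 14, 11 passed, against 10232 of all 19775 genes, and 10 of the 14 were at or above the median signal. VIM, or vimentin, the filament protein of mesenchymal cells, read 10.70 in the array labelled SP and 9.51 in the array labelled MP of H1650, and from 13.50 to 13.87 on the other 6 arrays (adjusted p = 6.99e-05). INA, a neuronal filament gene, had line means of 12.13 in H1650, 10.44 in A549, 7.36 in H1975 and 3.31 in H460, NES (nestin) was highest in H1975 at 11.03 and lowest in H1650 at 2.14, and NEFL was highest in H460 at 11.49. Of 8 chaperones and regulators of keratin 6 passed, against the same share of all genes, and all 8 were at or above the median signal. FAM83H, which guides casein kinase to keratin filaments, was highest in H1650 (12.13) and lowest in H460 (9.48), and TRIM29 was likewise highest in H1650 (11.23) and lowest in H460 (3.71). TCHP, or trichoplein, a keratin-binding protein, was highest in H460 (11.05) and EPPK1, or epiplakin, in H1975 (9.53). No probe set of any of these lists passed the test of SP against MP, with or without H1650.

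**Figure D4:**
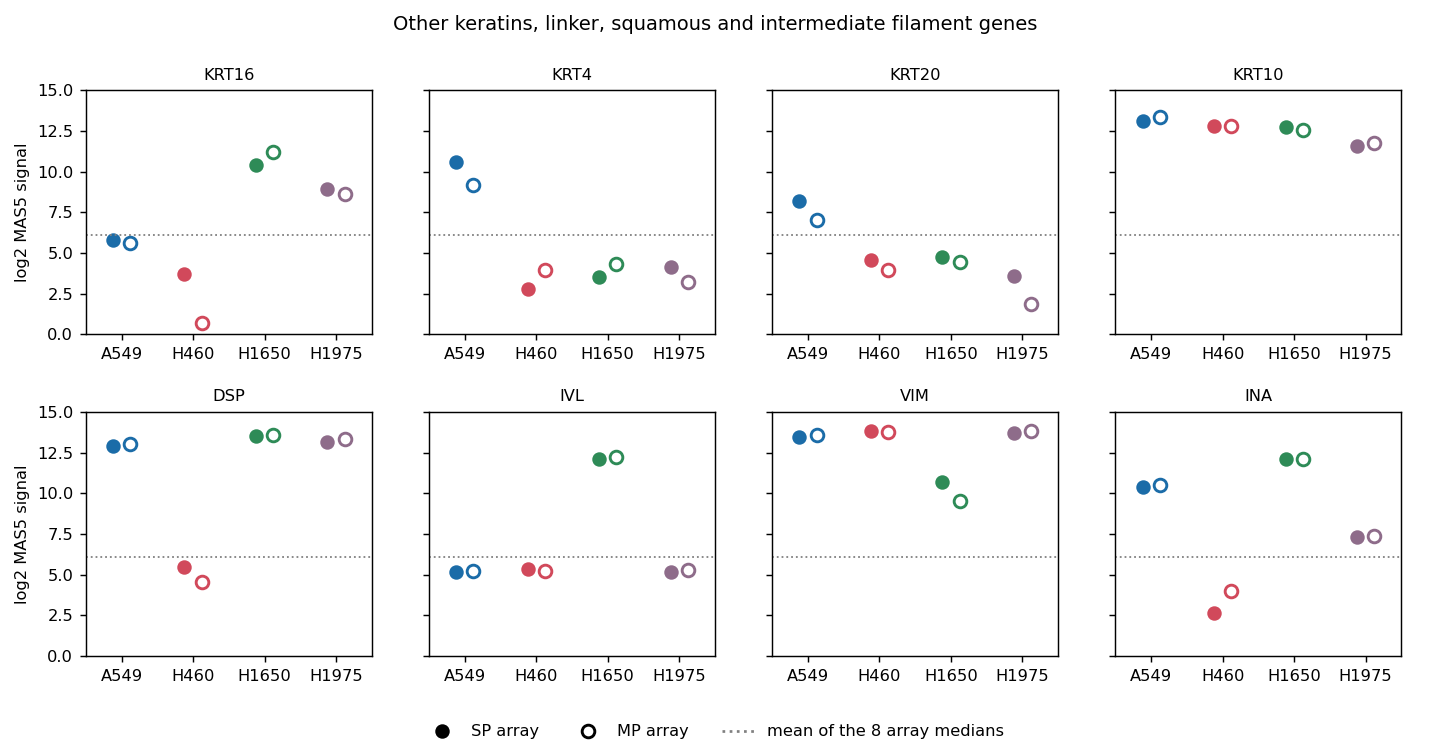
Log2 MAS5 signal (vertical axis) of 8 related genes in the 4 lines (horizontal axis): the keratins KRT16, KRT4, KRT20 and KRT10, the desmosome linker DSP, the squamous gene IVL and the intermediate filament genes VIM and INA, with filled points for SP, open points for MP and a dotted line at the mean of the array medians. DSP stands at 5.47 (SP) and 4.52 (MP) in H460 and at 12.93 or more elsewhere, IVL stands high in H1650 alone among the lines, and KRT4 stands high in A549 alone.

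The cells were checked against markers of epithelium and of other cell types. The epithelial markers EPCAM, CDH1, CLDN4, CLDN7 and ESRP1 were all highest in H1650 and differed between the lines. CDH1, the epithelial cadherin, read 13.70 (SP) and 13.67 (MP) in H1650, 11.96 (SP) and 12.37 (MP) in A549, 7.62 (SP) and 8.08 (MP) in H1975, and 1.61 (SP) and 0.63 (MP) in H460. H460, with KRT8, KRT18 and KRT19 bright and KRT7 lowest, had CDH1 at the low end of its arrays, and its EPCAM averaged 5.61. CLDN4, CLDN7 and ESRP1 were about as low in A549, the line with the highest KRT7. Their line means in A549 and H460 were 4.11 and 3.83 for CLDN4, 5.81 and 6.02 for CLDN7, and 3.07 and 3.15 for ESRP1. Of 4 alveolar and lung adenocarcinoma genes 0 differed between the lines by their brightest probe set (limma), also at an unadjusted p under 0.05. Of all 12 probe sets of these genes 1 was called. By the brightest probe set, SFTPB and SFTPC lay at or above the array median on all 8 arrays, NAPSA on 5 and NKX2-1, the lung lineage factor, on 0. The SFTPB probe set is of the x_at kind, and no detection calls were used. Of 3 leukocyte genes 2 differed, CD14, at or above the array median on 8 arrays, and CD3E, on 3, while PTPRC was there on 0. Of 3 endothelial genes 1 differed, CDH5, at or above the median on 1 array, while PECAM1 was there on 8 and VWF on 0. Of 5 fibroblast genes 4 differed, with COL1A1 highest in H1975 (line mean 12.97) and LUM highest in H460 (line mean 10.40). The part of these differences in the keratin differences was not tested.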

How the data were processed

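RNA of sorted SP and MP cells of 4 lines was measured on Affymetrix U133 Plus 2.0 arrays, with 1 array per population and line. The values the authors deposited are MAS5 signals on the log2 scale, for which the processing notes of the submitters list GCOS 1.4 and MAS5. The paper names Expression Console, and its methods describe log2 values and a mean centring, which the deposited values do not show. On the linear scale every array had a trimmed mean of 500.1. No detection calls were used. The platform annotation gave 41097 probe sets 1 gene symbol, 1801 several and 11777 none, and the RefSeq gene table (GRCh38.p14) changed 0 symbols. The 62 control probe sets were left out.

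Line differences were fitted with limma 3.58.1 in R 4.3.3 (lmFit, eBayes with trend) on all 54613 probe sets, with population as a term, and SP minus MP with cell line as a block. Benjamini-Hochberg adjustment ran over all probe sets, and an adjusted p under 0.05 was a call. The labels pair SP and MP by cell line. Their deviations from the population means had r from 0.573 to 0.645 over all probe sets, and all 4 SP arrays matched best the MP array of their own line. The code was tested on simulated data.

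The probe set with the highest mean signal stood for a gene. Named genes were all members, up to 4 genes of each list with the smallest p of the F test, the 3 genes most alike to each member, and the markers. KRT9 was named outside this rule, after its values were seen. The members and lists were chosen with earlier results of these data known. The alternatives were a floor of 32, a pseudocount of 16, quantile normalization, equal array medians, filters on dim probe sets, 1 probe set a gene, no trend, no population term, no block, other thresholds, the second brightest probe set, and leaving out each array or line. Leaving out both H1650 arrays in the test between lines was chosen after seeing the data.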

Additional observations from a re-analysis of the deposited data

Results flagged for a closer look

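In 36 groups of 4 values each (the SP arrays, the MP arrays and the ratios of SP over MP of the 12 keratin probe sets), 3 had a sample far from the other 3 relative to the whole range, where chance gives about 1 in 20 groups. The log2 ratio of SP over MP of the brightest KRT19 probe set was 0.51 in A549, against -0.044 to -0.013 in the other lines. On the SP arrays the second KRT19 probe set read 1.37 in H1650, against 2.38 to 2.57 in the other lines. On the MP arrays the fourth KRT7 probe set read 5.16 in A549, against 3.73 to 3.90 in the other lines. The last 2 are dim probe sets, below the array median on all 8 arrays.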

How the results depend on the processing

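The number of keratin probe sets that differed between the 4 lines was 7 and lay between 6 and 7 under every alternative run. Counts by pair moved more. Between A549 and H460 there were 3 without the variance trend, 4 with a 2-fold minimum, 4 with equal array medians and 7 with no population term, against 6. Between H460 and H1650 there were 6 after quantile normalization and 3 with a floor of 32, against 4. Between A549 and H1650 there were 2 with a 2-fold minimum, 3 with equal array medians, 2 without the trend and 3 to 6 on leaving out 1 array (3 without the MP array of A549), against 6. Between A549 and H1975 there was 1 with a 2-fold minimum, against 3. Between H460 and H1975 there were 2 to 4 on leaving out 1 array (2 without the MP array of H460), against 4. Between H1650 and H1975 there were 2 with a 2-fold minimum, 3 with equal array medians, 2 without the trend and 3 to 5 on leaving out 1 array (3 without either H1975 array), against 5. The cause was not tested. Of the single differences between lines, 393 values under an alternative kept direction and call, 33 lost the call, 4 gained it and 9 turned sign. Those that turned had not passed the test: KRT18 in H1650 minus H460 (-0.027 with equal medians) and in H460 minus H1975 (-0.17 after quantile normalization, -0.012 to 0.074 on leaving out 1 array), KRT19 in H460 minus H1650 (-0.15 after quantile normalization) and in A549 minus H1975 (-0.028 with equal medians, -0.20 to 0.33 on leaving out 1 array), and KRT15 in H1975 minus A549 (-0.070 to 0.12 on leaving out 1 array). For SP minus MP the count was 0 under every alternative run, and without the replicate block of cell line it was also 0. On leaving out 1 line, the mean for KRT19 lay between -0.028 and 0.16 and that for KRT80 between -0.12 and 0.037. The floor gave no difference where both values lay at it, as for KRT23. Signal below the array median limits KRT5, KRT23 and the dim probe sets of KRT7 and KRT19.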
